A study of Rattus norvegicus with 12 samples.

Results

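The renin-angiotensin genes described here are 6 rows of the rat gene count table, chosen by symbol from 32545 genes: Agt, Ace, Agtr1a, Agtr1b, Agtr2 and Enpep. They were picked with their levels across the 4 cell groups in view, so these levels are given as a description, without tests. Of the 6 genes, 4 passed the filter on low counts, and Agtr1b and Agtr2 did not. RNA was sequenced from 12 cultures in 4 groups of 3 biological replicates. ECCMM are immortalized GS cells in CMM medium with EGM2, an endothelial growth medium, and the labels tie them to cardiomyocyte and endothelial differentiation. CMM are immortalized GS cells in CMM medium alone, tied to cardiomyocyte differentiation. GS are the immortalized, undifferentiated cells, made from rat cardiac fibroblasts by viral overexpression of Sall4 and Gata4. RCF are the untreated wild type parental fibroblasts, connective tissue cells of the heart that lay down matrix, and were the controls. The treatment protocol names the viral factors for every sample, RCF included, but RCF are labelled wild type and non treated and held no Sall4 counts. All 4 groups thus derive from cultured heart fibroblasts, and the ECCMM, CMM and GS groups all carry both viral factors. The sources used here do not give rat strain, age, time in medium, the viral promoter or whether GS cells descend from a single clone.

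The renin-angiotensin system makes a peptide hormone by successive cuts. Angiotensin I is released from its precursor angiotensinogen (Agt), and angiotensin-converting enzyme (Ace) trims it to angiotensin II. Angiotensin II acts on type 1 and type 2 receptors, and aminopeptidase A (Enpep) removes its first residue to give angiotensin III. In the heart, fibroblasts are a main site of the type 1 receptor, whose activation is known to promote matrix production, while Ace is a classical enzyme of endothelial surfaces.

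Libraries held 16255682 to 23117864 counts. Levels are given as CPM, each library's counts divided by its TMM-scaled total, and ± is the SD over n = 3 libraries of a group unless SE is named. Sall4 had 67.5 to 72.4 CPM in ECCMM, 222 to 231 in CMM, 237 to 255 in GS and 0 in RCF libraries. Gata4 had 281 to 289 CPM in ECCMM, 487 to 499.9 in CMM, 588 to 603 in GS and 203 to 209.7 in RCF libraries. Of 10 fibroblast markers, 8 reached 1 CPM in ECCMM, 8 in CMM, 9 in GS and 10 in RCF. Collagen and vimentin genes were abundant in every group. The fibroblast transcription factor Tcf21 had 0 counts in ECCMM and averaged 0.0830 CPM in CMM, 0.395 in GS and 18.5 in RCF. Dcn also had its highest mean in RCF, at 32.8 CPM against 0.418 in ECCMM, 0.0703 in CMM and 1.00 in GS. Pdgfra ran the other way, with 463 CPM in ECCMM, 437 in CMM, 687 in GS and 97.3 in RCF. Lum likewise had its lowest mean in RCF, at 11.2 CPM against 92.4 in ECCMM, 15.8 in CMM and 116 in GS. Epithelial keratins and junction genes summed to 740.0 to 759 CPM in ECCMM, 2361 to 2382 in CMM, 693 to 719 in GS and 1.06 to 1.90 in RCF. In such bulk samples, fewer cells of a type and less RNA per cell cannot be told apart.

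The precursor gene was scarce. Agt (ENSRNOG00000018445, Rnor_6.0 chromosome 19, 57321640 to 57333433, minus strand) encodes angiotensinogen, which is made mainly in the liver. It had 0.829, 1.31 and 1.77 CPM in ECCMM, 1.28, 2.07 and 1.04 in CMM, 1.28, 1.45 and 0.451 in GS, and 0.549, 1.08 and 1.51 in RCF. These libraries held only 7 to 41 Agt counts each, and every pair of groups overlapped. The fitted log2 fold change was 0.28 ± 0.44 (SE) for ECCMM over GS, 0.45 ± 0.44 for CMM over GS and 0.04 ± 0.45 for GS over RCF, each about as large as its error or smaller. The 4 group means therefore have no order beyond their spread. Of 8 hepatocyte markers, only transferrin (Tf) reached 1 CPM in any group, while Fgb had 0 counts in all 12 libraries and Alb had 0 in CMM, GS and RCF and averaged 0.0346 CPM in ECCMM.

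Ace had the largest folds between groups of the 4 genes that passed the filter. It was abundant in ECCMM and near the detection limit in CMM and GS, so these folds rest on few counts in CMM and GS. Ace (ENSRNOG00000007467, chromosome 10, 94170789 to 94206535, plus strand) had 91.2, 94.5 and 85.1 CPM in ECCMM, against 0.380, 0.151 and 0.232 in CMM, 0.275, 0.347 and 0.322 in GS, and 1.86, 2.46 and 1.37 in RCF. The ECCMM values come from 1760, 2159 and 1630 counts. The CMM and GS libraries held 3 to 8 counts each, and RCF held 29 to 48. Each ECCMM library stood above every other library, RCF stood next, and CMM and GS overlapped.

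Group means were 90.3 ± 4.78 CPM in ECCMM, 0.254 ± 0.116 in CMM, 0.315 ± 0.0364 in GS and 1.90 ± 0.546 in RCF. The folds given here and below are those of the fitted model, which can differ a little from ratios of the means. Ace was 342-fold higher in ECCMM than in CMM (log2 8.42 ± 0.17, SE), 284-fold higher than in GS (log2 8.15 ± 0.17) and 47.8-fold higher than in RCF (log2 5.58 ± 0.13). By fitted fold change, Ace ranked 5 from the top of 14399 tested genes for ECCMM over CMM and 7 for ECCMM over GS. For ECCMM over RCF it ranked 376. Ace was also lower in GS than in RCF, at 0.315 against 1.90 CPM (log2 -2.57 ± 0.27), without overlap between the libraries. CMM and GS differed by log2 -0.27 ± 0.42, less than that error.

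Endothelial and macrophage genes, which mark 2 of the cell types known to carry Ace, were read beside it. Of 7 endothelial markers in the table, Tek and Vwf were above 1 CPM in ECCMM. Tek, an angiopoietin receptor, averaged 13.6 ± 1.09 CPM in ECCMM, 16.1 ± 3.04 in CMM, 12.2 ± 0.882 in GS and 13.0 ± 1.66 in RCF, so it did not follow Ace. Vwf, the clotting factor of endothelial granules, had its highest mean in ECCMM, as Ace did. It averaged 3.65 ± 0.291 CPM in ECCMM, 1.55 ± 0.617 in CMM, 1.37 ± 0.208 in GS and 0.892 ± 0.308 in RCF.

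Erg, an endothelial transcription factor, was highest in CMM, at 0.322 ± 0.0992 CPM in ECCMM, 6.07 ± 0.263 in CMM, 1.51 ± 0.282 in GS and 0 in RCF. Tie1 also had its highest mean in CMM, at 0.711 ± 0.169 CPM in ECCMM and 1.78 ± 0.441 in CMM, and Kdr stayed under 1 CPM in every group. The defining junction gene Cdh5 was at 0.0785 CPM in ECCMM, 0 in CMM, 0.206 in GS and 0.0342 in RCF, and Emcn had 0 counts in all 12 libraries. The summed endothelial markers ran from 17.7 to 19.3 CPM in ECCMM, 23.9 to 28.6 in CMM, 15.1 to 17.3 in GS and 13.6 to 17.2 in RCF. The 8 macrophage markers summed to 32.2 to 34.2 CPM in ECCMM, 16.5 to 17.5 in CMM, 23.2 to 26.9 in GS and 103 to 110.0 in RCF. In ECCMM, CMM and GS the macrophage markers Adgre1 and C1qa were at 0, while RCF had 14.3 ± 0.980 CPM of Adgre1. Most of the ECCMM, CMM and GS sums was Cd14, at 29.4 ± 1.11 CPM in ECCMM, 14.1 ± 0.898 in CMM, 23.2 ± 2.30 in GS and 17.3 ± 0.767 in RCF. The part of endothelial cells or macrophages in the Ace level of any group, RCF included, was not tested.

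**Figure D1:**
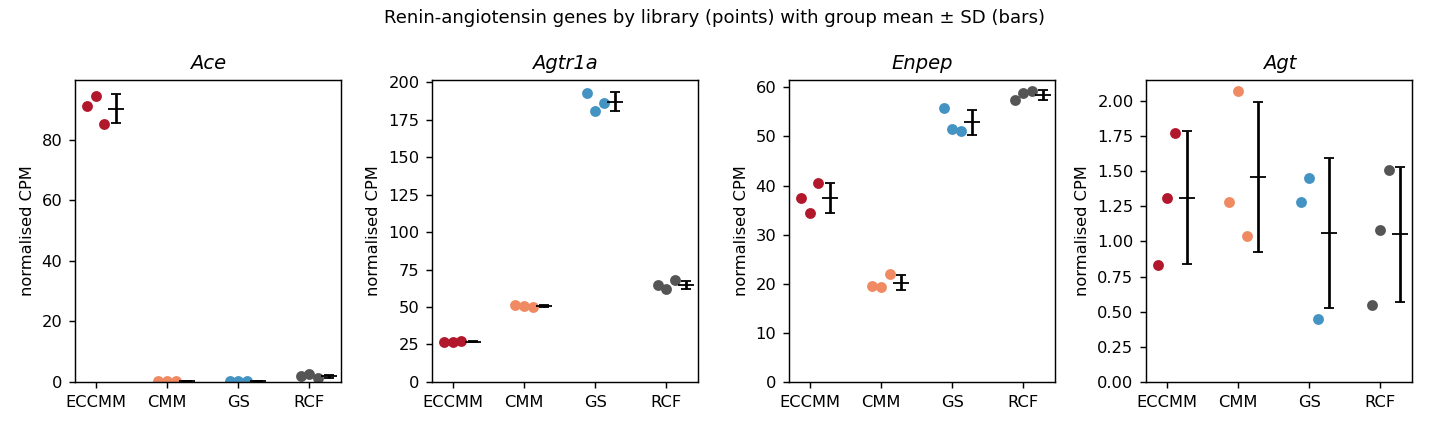
Normalised CPM (vertical axes, linear, starting at 0) of Ace, Agtr1a, Enpep and Agt in the 12 libraries. Points are libraries by group, and bars are the group mean ± SD (n = 3); Ace is at 85.1 to 94.5 CPM in ECCMM only, Agtr1a is highest in GS at 181 to 193 CPM, Enpep is lowest in CMM, and Agt overlaps in all groups.

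Among the angiotensin receptor genes, nearly all counts were assigned to Agtr1a, which ran in the order GS, RCF, CMM, ECCMM from high to low. Agtr1a (ENSRNOG00000018346, chromosome 17, 35907108 to 35958077, minus strand) encodes the type 1a receptor, a Gq-coupled receptor. It had 26.5, 26.8 and 27.5 CPM in ECCMM, 51.5, 50.8 and 49.9 in CMM, 193, 181 and 186 in GS, and 64.7, 61.8 and 67.7 in RCF. No library of any group overlapped with another group. GS was 2.88-fold above RCF (187 ± 6.33 against 64.7 ± 2.96 CPM, log2 1.53 ± 0.05, SE).

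In both media Agtr1a stood below GS and below the parental fibroblasts. It was 3.67-fold lower in CMM than in GS (log2 -1.88 ± 0.05) and 6.92-fold lower in ECCMM than in GS (log2 -2.79 ± 0.05). ECCMM was a further 1.88-fold below CMM (26.9 ± 0.520 against 50.8 ± 0.796 CPM, log2 -0.91 ± 0.05). Relative to RCF, it was 2.40-fold lower in ECCMM (log2 -1.27 ± 0.05) and 1.28-fold lower in CMM (log2 -0.35 ± 0.05). CMM and ECCMM share the GS libraries as their comparison, so their differences from GS are not independent of each other.

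Smooth muscle and pericyte genes, which mark other cells known to carry the type 1 receptor, were read beside Agtr1a. The 7 smooth muscle markers summed to 399.7 to 405 CPM in ECCMM, 2526 to 2576 in CMM, 610.1 to 640.0 in GS and 797 to 816 in RCF. That sum was highest in CMM, where Agtr1a was low. The 7 pericyte markers summed to 461 to 505 CPM in ECCMM, 361 to 365 in CMM, 1342 to 1360.2 in GS and 967 to 993 in RCF, with their highest sums in GS as for Agtr1a. Among them Pdgfrb, which cardiac fibroblasts also express, averaged 91.4 ± 3.21 CPM in ECCMM, 208 ± 2.05 in CMM, 1097 ± 10.6 in GS and 905 ± 11.3 in RCF, the same order as Agtr1a. Cspg4 ran otherwise, with 301 ± 14.0 CPM in ECCMM, 147 ± 6.04 in CMM, 228 ± 9.55 in GS and 38.7 ± 2.15 in RCF. Abcc9 also had its highest mean in ECCMM, at 73.3 ± 4.13 CPM against 19.3 ± 2.92 in GS, and Kcnj8 had 15.4 ± 2.42 CPM in ECCMM and 1.86 ± 0.297 in GS. Of the rest, Notch3 had its highest mean in RCF, Higd1b stayed under 1 CPM in every group, and Rgs5 had 0 counts in ECCMM, CMM and GS. The part of such cells in the Agtr1a level was not tested.

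The other receptor genes were not detected at this depth, apart from a few reads. Agtr1b (ENSRNOG00000010640, chromosome 2, 105149020 to 105224295, minus strand), the rodent duplicate of the type 1 receptor, had 0 counts in all 12 libraries. A count of 0 allows up to 3 counts, or 0.127 to 0.193 CPM depending on the library, for counting error only. The coding sequences of both type 1 receptor genes are close to each other, and the treatment of reads that match both is not given in the sources used here, so the split between them is uncertain. Agtr2 (ENSRNOG00000050006, chromosome X, 119390013 to 119393842, plus strand), the type 2 receptor of fetal tissue, had 3 counts in ECCMM replicate 2 and 0 in the other 11 libraries. No fold is given for either gene.

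The sequences just upstream of 3 of the genes are shown because they stand for the contrasts above. Ace was abundant in a single group, Agtr1a was present in all 4, and its duplicate Agtr1b had no counts. Each is the 250 bases before the gene start in RefSeq (build GRCr8), written along the gene's strand, with TATAA and GGGCGG on either strand in capitals. Such a window was available for 5 of the 6 genes, all but Agt.
Ace, chr10:91409879-91410128, plus strand: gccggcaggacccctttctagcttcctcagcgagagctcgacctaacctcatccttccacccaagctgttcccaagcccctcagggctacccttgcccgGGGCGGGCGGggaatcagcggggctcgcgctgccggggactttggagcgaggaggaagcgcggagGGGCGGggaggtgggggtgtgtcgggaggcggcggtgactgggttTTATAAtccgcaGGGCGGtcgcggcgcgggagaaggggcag
Agtr1a, chr17:34435433-34435682, minus strand: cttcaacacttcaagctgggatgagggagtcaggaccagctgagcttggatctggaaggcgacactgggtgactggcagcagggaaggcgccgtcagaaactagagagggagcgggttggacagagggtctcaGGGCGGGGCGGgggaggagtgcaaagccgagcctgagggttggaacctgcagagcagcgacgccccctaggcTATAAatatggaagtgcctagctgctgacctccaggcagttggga
Agtr1b, chr2:104849263-104849512, minus strand: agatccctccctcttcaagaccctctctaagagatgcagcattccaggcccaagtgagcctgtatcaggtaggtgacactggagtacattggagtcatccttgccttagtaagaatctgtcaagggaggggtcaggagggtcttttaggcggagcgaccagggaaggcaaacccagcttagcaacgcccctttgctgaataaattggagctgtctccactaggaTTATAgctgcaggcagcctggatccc

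The Ace window was 69.2% G and C, against 60.8% for Agtr1a and 52.8% for Agtr1b. GGGCGG, the GC box of SP factors, occurred 4 times in the Ace window, of which 2 overlap, and 2 overlapping times in the Agtr1a window. It was absent from the Agtr1b, Agtr2 and Enpep windows, and 30.5% of 33469 promoter windows of this length held it. TATAA, read in either direction, was in the Ace, Agtr1a, Agtr1b and Agtr2 windows but not in that of Enpep, and 24.0% of all windows held it. The Ace window has it in both directions at a single overlapping place. GATAA, a motif of GATA factors, was in none of the 5 windows and in 23.5% of all windows. These are matches of letters in a short window and say nothing on binding.

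Enpep, the gene of the enzyme that turns angiotensin II into angiotensin III, was well expressed in all groups and lowest in CMM. Enpep (ENSRNOG00000051854, chromosome 2, 233667254 to 233743866, minus strand) had 37.5, 34.4 and 40.6 CPM in ECCMM, 19.5, 19.3 and 22.0 in CMM, 55.9, 51.6 and 51.2 in GS, and 57.4, 58.9 and 59.3 in RCF. The order from high to low was RCF, GS, ECCMM and CMM, again with no overlap between libraries of any groups. RCF and GS lay close together. Enpep was 2.62-fold lower in CMM than in GS (means of 20.2 against 52.9 CPM, log2 -1.39 ± 0.07, SE) and 1.41-fold lower in ECCMM than in GS (37.5 ± 3.12 CPM, log2 -0.50 ± 0.07).

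Between the media Enpep ran opposite to Agtr1a, with 1.85-fold more in ECCMM than in CMM (log2 0.89 ± 0.07). The step between GS and RCF was small, 52.9 ± 2.59 against 58.5 ± 1.02 CPM (log2 -0.14 ± 0.07). It was log2 -0.24 with library totals as the only scaling, a scaling that moved the median of all tested genes in this comparison from -0.03 to -0.13. Against RCF, Enpep was 1.56-fold lower in ECCMM (log2 -0.64 ± 0.07) and 2.90-fold lower in CMM (log2 -1.53 ± 0.07).

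Non-overlapping libraries are common in these data, so the separations above are set beside the background. Of all 14399 tested genes, libraries did not overlap for 67.8% in ECCMM against CMM, 70.3% in ECCMM against GS, 67.0% in CMM against GS and 74.2% in GS against RCF. For the comparisons with the parental fibroblasts, the shares were 76.4% for ECCMM and 77.8% for CMM. Since the genes were chosen for their levels, nothing is read from how many of them separate.

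Per gene length, the balance between the enzyme and receptor genes differed by group. The length used is that of the gene model in the table, so these values assume that the whole model is transcribed. In ECCMM the level per kilobase was 14.2 ± 0.755 RPKM for Ace, 12.3 ± 0.238 for Agtr1a, 9.87 ± 0.822 for Enpep and 0.676 ± 0.245 for Agt. In CMM it was 23.3 ± 0.365 RPKM for Agtr1a, 5.33 ± 0.394 for Enpep, 0.758 ± 0.277 for Agt and 0.0401 ± 0.0183 for Ace. In GS it was 85.4 ± 2.90 RPKM for Agtr1a, 13.9 ± 0.681 for Enpep, 0.548 ± 0.276 for Agt and 0.0496 ± 0.00574 for Ace.

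In RCF the RPKM was 29.7 ± 1.36 for Agtr1a, 15.4 ± 0.269 for Enpep, 0.541 ± 0.250 for Agt and 0.299 ± 0.0862 for Ace. Agtr1a thus led in CMM, GS and RCF, while Ace was first in ECCMM. The ratio of Ace to Agtr1a per length was 1.07 to 1.21 in the ECCMM libraries, 0.00102 to 0.00254 in CMM, 0.000491 to 0.000662 in GS and 0.00697 to 0.0137 in RCF. The ratio of Agtr1a to Enpep was 1.18 to 1.36 in ECCMM, 3.96 to 4.60 in CMM, 6.02 to 6.32 in GS and 1.83 to 1.99 in RCF. Among all tested genes, 93.2% had a lower RPKM than Agtr1a in GS, and 58.1% did in ECCMM. For Ace these shares were 61.8% in ECCMM and 1.85% in GS.

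**Figure D2:**
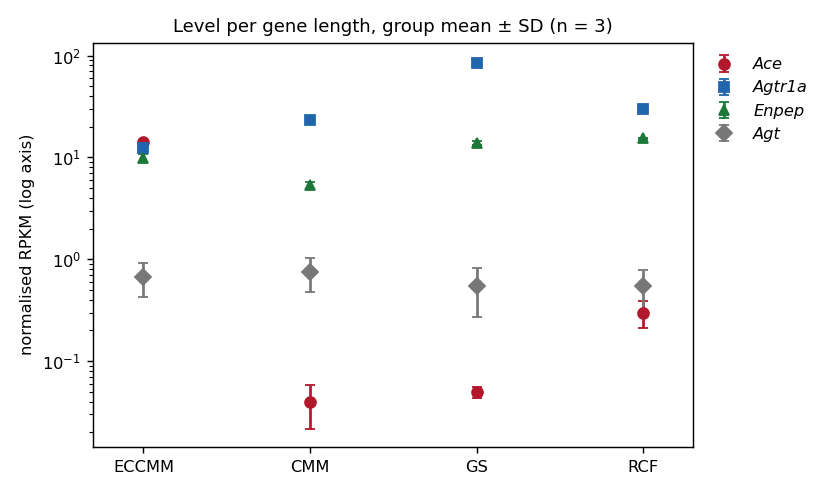
Mean RPKM ± SD (n = 3, log axis) of Ace, Agtr1a, Enpep and Agt in each group. Ace lies with Agtr1a and Enpep in ECCMM, at 14.2, 12.3 and 9.87 RPKM, and far below both in CMM, GS and RCF.

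Other genes with like profiles were found by the root-mean-square difference of centred log2 values over the 12 libraries, among 12891 genes with at least 1 CPM on average. Nearest to Ace were Hmga1, a chromatin architectural protein (0.63), Adcyap1r1, a receptor of the neuropeptide PACAP (0.81), and Nptx1, a neuronal pentraxin (0.85), where the median over all genes was 2.85. Hmga1 averaged 1013 ± 36.8 CPM in ECCMM, 11.1 ± 1.28 in CMM, 28.2 ± 1.31 in GS and 35.3 ± 1.59 in RCF. Adcyap1r1 averaged 111 ± 3.69 CPM in ECCMM, had 0 counts in CMM and GS, and averaged 0.162 ± 0.150 CPM in RCF. Both had their highest level in ECCMM, as Ace did, but Hmga1 was also clearly detected in CMM, GS and RCF.

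Nearest to Agtr1a were Sesn2, a stress-responsive regulator of growth signalling (0.16), Auts2, a neurodevelopmental gene (0.17), and Hist1h1c, a linker histone (0.19), with a median of 1.08 over all genes. Sesn2 averaged 60.2 ± 0.777 CPM in ECCMM, 135 ± 2.00 in CMM, 386 ± 0.904 in GS and 129.7 ± 1.38 in RCF. Nearest to Enpep were Plbd2 (0.08), Ilvbl (0.10) and Aga, a lysosomal glycoprotein hydrolase (0.12), with a median of 0.70. Plbd2 averaged 211 ± 2.76 CPM in ECCMM, 110.4 ± 1.91 in CMM, 289 ± 4.98 in GS and 345 ± 4.97 in RCF. For Agt the nearest genes were at 0.30 (Slc7a6os and Gpank1) and 0.31 (AABR07033324.1) against a median of 0.56, so its scattered profile has no close partner.

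**Figure D3:**
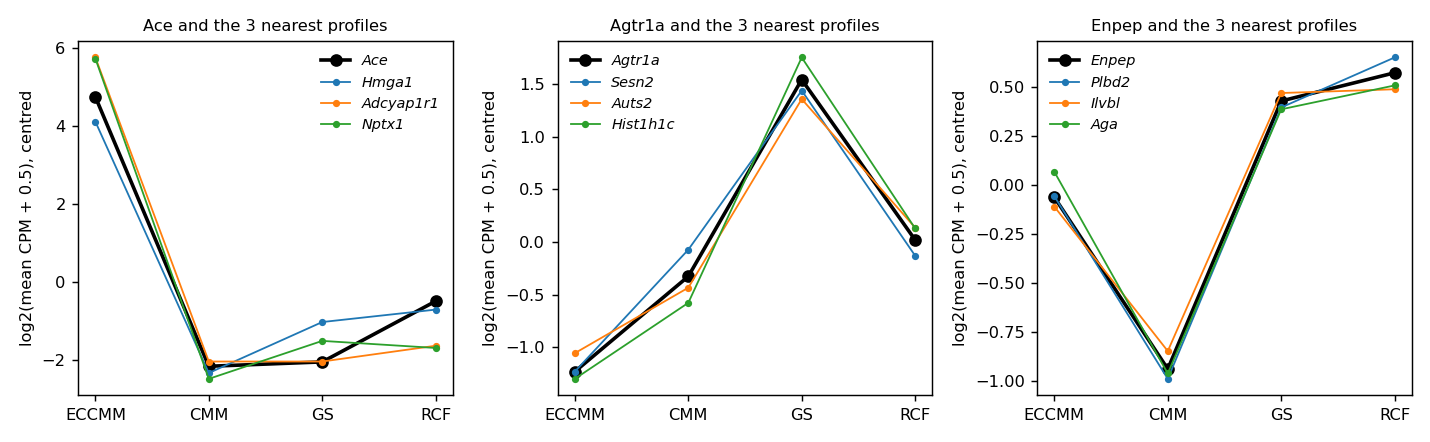
Log2 of the group mean CPM plus 0.5, centred on each gene's own mean, for Ace, Agtr1a and Enpep (black) and the 3 genes with the nearest profiles (coloured); lines join the group values of a gene. Ace and its neighbours are highest in ECCMM, Agtr1a and its neighbours peak in GS, and Enpep and its neighbours are lowest in CMM.

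The wider pathway was read from a list of 20 other renin-angiotensin genes, of which 19 were matched in the table and 12 were tested. Their differences were tested with edgeR's quasi-likelihood test, two-sided, with Benjamini-Hochberg adjustment over all tested genes and a threshold of 0.05. Several untested genes were near 0. Mas1, the receptor of the angiotensin heptapeptide, had 1 count in all ECCMM libraries together, 3 in CMM, 1 in GS and 16 in RCF. The RCF counts were uneven, with 0 to 0.662 CPM in the single libraries.

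The mast cell protease genes Cpa3 and Ctsg, of which cathepsin G can also make angiotensin II, had 0 counts in all libraries, and chymase (Cma1) had 1 count in all. The heptapeptide family receptor Mrgprd also had 1 count in all. The tested genes were the prorenin receptor and general peptidases, several of them lysosomal.

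In ECCMM against CMM, 6 of the 12 tested genes were higher, 5 lower and 1 not called. Of all tested genes 63.7% were called, 32.1% higher and 31.5% lower. The list median log2 fold change was -0.03 against 0.00 over all tested genes. Anpep, the aminopeptidase that turns angiotensin III into angiotensin IV, was 4.49-fold higher (8.25 ± 0.861 against 1.84 ± 0.264 CPM, log2 2.17 ± 0.14, adjusted p = 3.43e-14). The lysosomal protease gene Ctsd was 2.38-fold higher (369 ± 1.43 against 155 ± 3.08 CPM, adjusted p = 6.32e-25), and Ctsa, cathepsin A, 1.69-fold higher (adjusted p = 3.9e-19). Prcp, a carboxypeptidase of angiotensin II, was 1.52-fold higher (adjusted p = 1.52e-09).

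Mme, which encodes neprilysin and cuts angiotensin I, was lower in ECCMM than in CMM, 28.5 ± 2.93 against 62.1 ± 3.10 CPM (2.18-fold, adjusted p = 5.54e-13). Rnpep, aminopeptidase B, was 2.01-fold lower (adjusted p = 2.48e-15) and Prep, prolyl endopeptidase, 1.41-fold lower (adjusted p = 4.35e-10). The call of Atp6ap2, the prorenin receptor, as higher (81.6 ± 1.64 against 76.0 ± 2.58 CPM, log2 0.10 ± 0.04, adjusted p = 0.0405) ended under 13 of 20 alternatives, among them without CMM replicate 3 (log2 0.07). Lnpep, the insulin-regulated aminopeptidase that binds angiotensin IV, was not called in any comparison and had a wide spread, 2.32 ± 1.09 CPM in ECCMM, 3.05 ± 2.02 in CMM, 2.44 ± 1.33 in GS and 5.80 ± 4.26 in RCF.

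In ECCMM against GS, 3 of the 12 were higher, 5 lower and 4 not called, with 67.0% of all tested genes called (33.3% higher, 33.7% lower) and a list median of -0.10 against -0.00. With library totals as the only scaling, the split turned to 5 higher and 4 lower. Thop1, an oligopeptidase that cuts angiotensin I, was 1.87-fold higher (53.4 ± 1.56 against 28.5 ± 1.40 CPM, adjusted p = 1.06e-13). Ctsd was 1.93-fold lower (adjusted p = 2.24e-22), Atp6ap2 1.53-fold lower (adjusted p = 9.83e-14) and Ctsa 1.43-fold lower (adjusted p = 3.23e-15). Anpep was 1.28-fold lower (log2 -0.36 ± 0.12, adjusted p = 0.00950), a call that ended without ECCMM replicate 2 (log2 -0.27).

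In CMM against GS, 5 of the 12 were higher, 6 lower and 1 not called, with 64.3% of all tested genes called (32.0% higher, 32.3% lower) and a list median of -0.07 against -0.00. Anpep fell 5.75-fold to 1.84 ± 0.264 CPM in CMM, against 10.6 ± 1.21 in GS (log2 -2.52 ± 0.14, adjusted p = 7.49e-16). Ctsd was 4.59-fold lower (155 ± 3.08 against 714 ± 25.8 CPM, adjusted p = 8.47e-31) and Ctsa 2.42-fold lower (adjusted p = 1.04e-24). Mme was 2.93-fold higher (62.1 ± 3.10 against 21.2 ± 0.882 CPM, adjusted p = 5.65e-16), Thop1 2.36-fold higher (adjusted p = 5.38e-17) and Rnpep 2.16-fold higher (adjusted p = 3.19e-16). Anpep, Ctsd, Ctsa and Prcp, like Enpep, thus had their lowest mean in CMM.

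In GS against RCF, 1 of the 12 was higher, 8 lower and 3 not called, with 71.3% of all tested genes called (35.0% higher, 36.3% lower) and a list median of -0.47 against -0.03. The gene that rose was Mme, 4.04-fold (21.2 ± 0.882 against 5.26 ± 0.844 CPM, log2 2.02 ± 0.10, adjusted p = 5.5e-17). Anpep was 3.51-fold lower (10.6 ± 1.21 against 37.0 ± 1.05 CPM, adjusted p = 9.06e-15), Ctsa 1.66-fold lower (adjusted p = 3.43e-19) and Ctsd lower by log2 -0.58 (adjusted p = 2.57e-17). Prep, Prcp and Lnpep were not called.

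**Figure D4:**
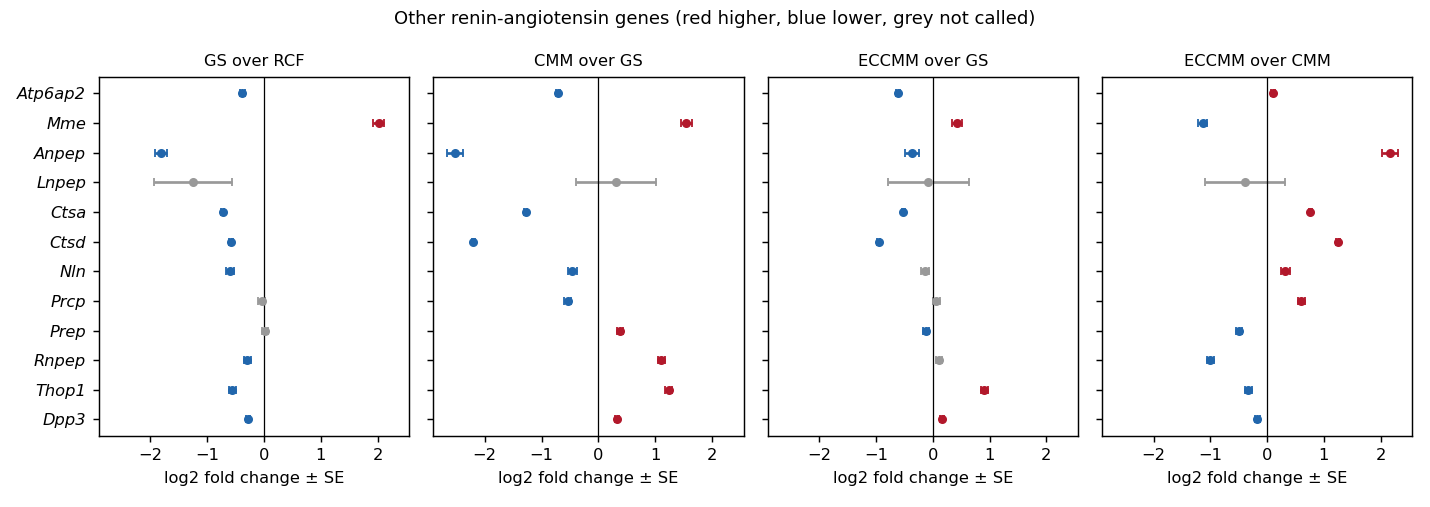
Log2 fold change ± SE of the 12 tested renin-angiotensin genes outside the 6 described, in 4 comparisons; red and blue mark genes called higher or lower at an adjusted p under 0.05, grey those not called. Anpep, Ctsa and Ctsd fall in CMM against GS and are higher in ECCMM than in CMM, and Mme, Rnpep and Thop1 run the other way.

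Downstream of the receptor, 20 coupling and binding partners were listed and 19 tested. In ECCMM against CMM 8 were higher and 6 lower, in ECCMM against GS 8 higher and 6 lower, in CMM against GS 7 higher and 4 lower, and in GS against RCF 7 higher and 9 lower. The share of partners called was 73.7%, 73.7%, 57.9% and 84.2% in these comparisons, beside 63.7%, 67.0%, 64.3% and 71.3% of all tested genes. In GS against RCF the split was 5 higher and 11 lower with library totals as the only scaling, and 4 higher and 9 lower without RCF replicate 1. The list median was 0.07, 0.08, 0.07 and -0.24 in these comparisons, against 0.00, -0.00, -0.00 and -0.03 over all tested genes. Rgs2, a brake on Gq signalling, fell to 3.73 ± 0.477 CPM in CMM, against 23.4 ± 1.49 in GS (6.30-fold, adjusted p = 3.73e-20). ECCMM had 27.3 ± 1.37 CPM of Rgs2, 7.34-fold above CMM (adjusted p = 3.37e-21), and GS lay 2.41-fold below the 56.7 ± 1.56 CPM of RCF (adjusted p = 4.83e-15).

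The phospholipase C gene Plcb4, an effector of Gq, had its lowest mean in ECCMM, as Agtr1a did, but its highest in RCF. Plcb4 averaged 3.04 ± 0.693 CPM in ECCMM, 6.76 ± 0.700 in CMM, 11.4 ± 1.03 in GS and 31.3 ± 1.20 in RCF. It was 3.72-fold lower in ECCMM than in GS (adjusted p = 7.13e-13), 1.68-fold lower in CMM than in GS (adjusted p = 1.22e-05) and 2.75-fold lower in GS against RCF (adjusted p = 1.31e-11). Plcb1, of the same family, was 4.39-fold lower in ECCMM than in CMM, at 0.666 ± 0.234 against 2.96 ± 0.936 CPM (adjusted p = 1.26e-06). Plcb3 and the Gq gene Gnaq went the other way, with their highest means in ECCMM. Plcb3 was 1.96-fold higher in ECCMM than in GS (112 ± 2.03 against 57.2 ± 1.77 CPM, adjusted p = 1.72e-17). Gnaq was 1.51-fold higher (72.0 ± 1.70 against 47.8 ± 3.26 CPM, adjusted p = 6.15e-10). The arrestin gene Arrb1, whose product desensitizes the receptor, was 2.67-fold higher in ECCMM than in GS (16.1 ± 1.05 against 6.03 ± 0.842 CPM, adjusted p = 1.15e-09). Arrb2 ran the other way between the media, at 3.73 ± 0.886 CPM in ECCMM and 11.1 ± 0.599 in CMM (2.96-fold lower, adjusted p = 6.54e-09). The kinase gene Prkca was 2.14-fold higher in GS than in RCF (72.9 ± 4.94 against 34.1 ± 1.12 CPM, adjusted p = 2.88e-16).

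A list of 20 genes known to be induced by angiotensin II was read as well, all 20 of which were tested. Many other signals induce these genes, and 3 of them, Col1a1, Col3a1 and Postn, are also among the fibroblast markers. In ECCMM against CMM 8 were higher and 12 lower, where 32.1% of all tested genes were higher and 31.5% lower, with a list median of -0.86 against 0.00 over all tested genes. In ECCMM against GS 3 were higher and 17 lower, beside 33.3% and 33.7% of all tested genes (median -1.24 against -0.00). In CMM against GS 5 were higher, 13 lower and 2 not called, beside 32.0% higher and 32.3% lower (median -0.43 against -0.00). In GS against RCF 13 were higher and 7 lower, beside 35.0% and 36.3% (median 0.93 against -0.03).

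Il6, an inflammatory cytokine gene, had 0.374 ± 0.0536 CPM in ECCMM, 0.934 ± 0.195 in CMM, 12.3 ± 0.601 in GS and 0.958 ± 0.302 in RCF. GS was 12.7-fold above RCF (adjusted p = 1.75e-13), and CMM was 13.0-fold below GS (adjusted p = 2.52e-13). Ctgf, a matricellular growth factor gene listed as Ccn2, had 2025 ± 34.7 CPM in ECCMM, 7103 ± 121 in CMM, 10252 ± 213 in GS and 1473 ± 10.8 in RCF. It was 6.96-fold higher in GS than in RCF (adjusted p = 1.74e-37).

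Edn1, the precursor of the vasoconstrictor endothelin, had 4.22 ± 0.393 CPM in ECCMM, 54.3 ± 2.21 in CMM, 73.2 ± 4.25 in GS and 12.6 ± 1.17 in RCF. ECCMM was 17.3-fold below GS (adjusted p = 4.06e-26) and 12.8-fold below CMM (adjusted p = 9.64e-25). Egr1, an immediate early transcription factor gene, was 6.41-fold lower in CMM than in GS (98.3 ± 4.99 against 631 ± 21.1 CPM, adjusted p = 8.68e-31). Il6, Ctgf, Edn1 and Egr1 thus had, like Agtr1a, their highest mean in GS.

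Spp1 and Postn departed from that pattern. Spp1, which encodes osteopontin, had 3165 ± 66.1 CPM in ECCMM, 223 ± 3.36 in CMM, 182 ± 5.19 in GS and 57.9 ± 1.79 in RCF, and ECCMM was 17.4-fold above GS (adjusted p = 3.15e-37). Postn, the matrix protein periostin, had 59.9 ± 2.80 CPM in ECCMM, 698 ± 8.81 in CMM, 99.0 ± 3.46 in GS and 232 ± 3.04 in RCF. It was 7.05-fold higher in CMM than in GS (adjusted p = 8.84e-32) and 11.7-fold lower in ECCMM than in CMM (adjusted p = 6.36e-34).

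**Figure D5:**
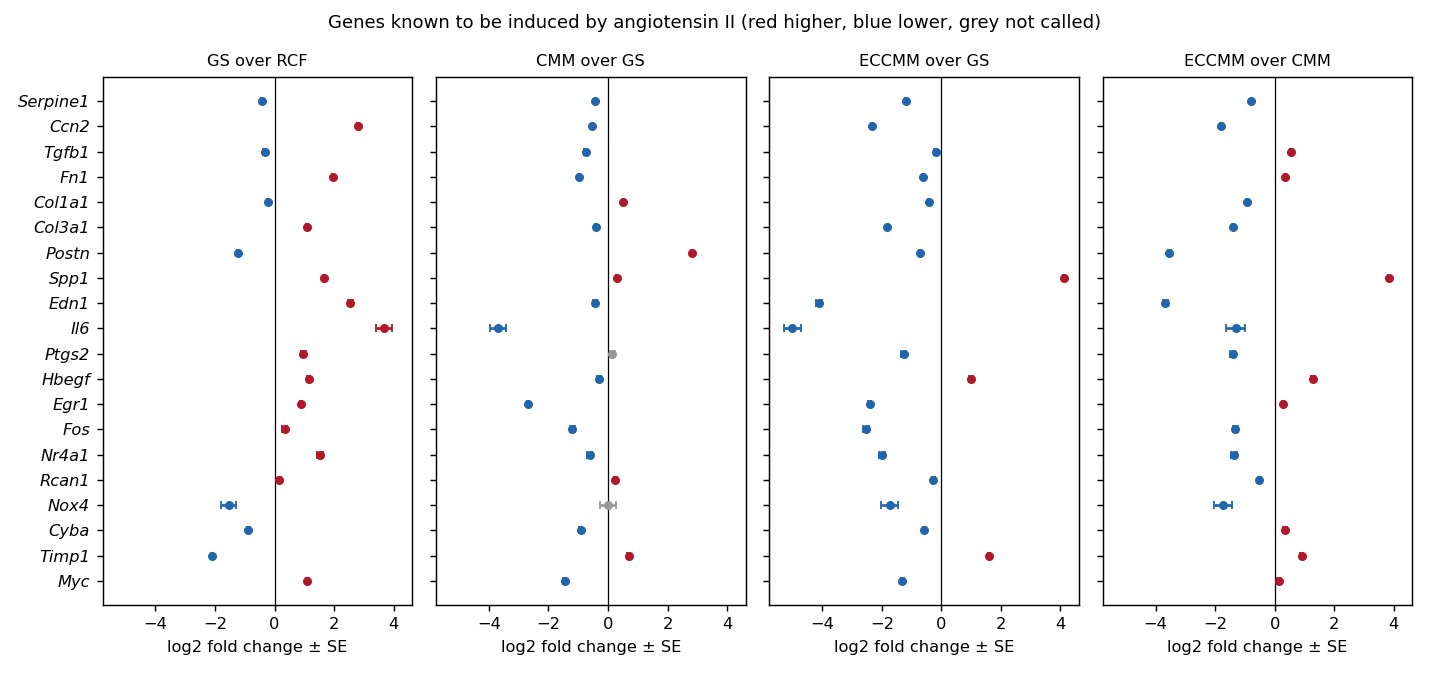
Log2 fold change ± SE of 20 genes known to be induced by angiotensin II, in 4 comparisons; red and blue mark genes called higher or lower, grey those not called. In GS against RCF 13 points lie to the right, and in ECCMM against GS 17 lie to the left, with Spp1 the farthest to the right.

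Genes of the kinin system, which Ace also degrades, and of other vasoactive peptides formed the last list, with 22 genes, 21 of them in the table and 19 tested. In ECCMM against CMM 7 were higher and 6 lower, in ECCMM against GS 4 higher and 12 lower, in CMM against GS 1 higher and 17 lower, and in GS against RCF 6 higher and 10 lower. Of all tested genes, 32.1% were higher and 31.5% lower in ECCMM against CMM, 33.3% and 33.7% in ECCMM against GS, 32.0% and 32.3% in CMM against GS, and 35.0% and 36.3% in GS against RCF. The list median was -0.21, -0.60, -0.93 and -0.33 in these comparisons, against 0.00, -0.00, -0.00 and -0.03 over all tested genes. Bdkrb1, the inducible bradykinin receptor, was 3.64-fold lower in CMM than in GS (1.63 ± 0.321 against 5.99 ± 0.665 CPM, adjusted p = 1.47e-09). The more abundant receptor gene Bdkrb2 was 1.77-fold lower in CMM than in GS (46.9 ± 4.23 against 83.1 ± 0.630 CPM, adjusted p = 4.47e-13). In GS against RCF, Bdkrb2 was 3.89-fold higher (adjusted p = 7.31e-22) and Bdkrb1 1.68-fold lower (adjusted p = 0.000444).

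Npr3, the clearance receptor of natriuretic peptides, was 32.8-fold lower in ECCMM than in GS (9.43 ± 1.80 against 312 ± 17.9 CPM, adjusted p = 3.67e-16). It was also lower in ECCMM than in CMM, with 114 ± 4.16 CPM (log2 -3.58 ± 0.09, adjusted p = 3.47e-14). Avpr1a, a vasopressin receptor, was lower in both media, at 2.69 ± 0.312 CPM in ECCMM and 3.11 ± 0.0851 in CMM, against 25.1 ± 1.77 in GS (9.29-fold and 8.06-fold, adjusted p = 5.77e-19 and 2.92e-18). Adm, the vasodilator adrenomedullin, was 5.05-fold higher in ECCMM than in CMM (181 ± 5.58 against 35.7 ± 4.57 CPM, adjusted p = 2.98e-20).

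In GS against RCF, the natriuretic peptide gene Nppb was 24.9-fold higher (16.7 ± 0.586 against 0.652 ± 0.299 CPM, adjusted p = 9.03e-18). Calcrl, a receptor for adrenomedullin and related peptides, was lower (2.42 ± 0.352 against 26.4 ± 2.06 CPM, log2 -3.45 ± 0.17, adjusted p = 2.43e-17). The endothelin receptor gene Ednrb was 7.28-fold lower (3.59 ± 0.622 against 26.1 ± 0.829 CPM, adjusted p = 9.51e-11).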

How the data were processed

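The authors deposited whole-number read counts per gene, not normalized, with Ensembl rat gene IDs, symbols, positions and lengths. Per the labels' protocols, total RNA went into the Ovation v2 RNA-seq kit. The submitters' processing notes name Bowtie 0.12.2 and, with no role, Rnor_6.0 and mm8 as builds. The table's rat positions are given here as Rnor_6.0. Which counting program and annotation release were used, and whether strand was, is not given in the sources used here. None of the 6 genes overlaps another gene of the table.

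Groups came from the sample descriptions. Counts were scaled by TMM and fitted in edgeR 4.0.16 (R 4.3.3) by robust quasi-likelihood over all 12 libraries, with 1 coefficient for each of the 4 groups. The filter filterByExpr left 14399 tested genes and 18146 untested. The SE of a log2 fold change comes from the F statistic. Alternatives used limma 3.58.1 and DESeq2 1.42.0 among others. The fit was tested on simulated counts. Replicate pairs within groups differed by 4.54 to 7.87 times the chi-square per degree of freedom of sampling noise, over genes with at least 100 counts, so none looks like a library sequenced again.

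The 6 genes, the gene lists and the tests were chosen with earlier results of these data known, so list counts are descriptions. Of 82 list entries (Edn1 is in 2 of the lists), 3 matched through other names in a RefSeq table (GRCr8), and Klk1 and Kng2 are not analysed here, nor is the endothelial marker Pecam1. Some untested genes of the lists are not reported here. Named were the 6 genes, the other renin-angiotensin genes, from each other list up to 3 called genes per comparison with the largest change, at least 1 CPM and no overlap between libraries, and the 3 nearest profiles of each gene. Plcb3, Gnaq and Bdkrb2 were named outside this rule, beside related genes that it picked. RPKM values were computed from the counts and the table's gene lengths.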

Additional observations from a re-analysis of the deposited data

How the results depend on the processing

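The number of genes called in each list, both directions together, stayed within 1.5 times its value under all 20 alternatives. Of the counts by direction, 2 moved further: the other renin-angiotensin genes higher in ECCMM against GS, 5 in place of 3 with library totals, and the receptor partners higher in GS against RCF, 4 in place of 7 without RCF replicate 1. For the other renin-angiotensin genes, 10 to 11 were called in ECCMM against CMM, 7 to 9 in ECCMM against GS, 11 in CMM against GS and 9 to 10 in GS against RCF. Over the alternatives, the log2 fold change of Ace ran from 8.13 to 8.85 in ECCMM against CMM and from 8.05 to 8.23 in ECCMM against GS. That of Agtr1a ran from -2.81 to -2.71 in ECCMM against GS and from 1.43 to 1.56 in GS against RCF. That of Agt changed sign in GS against RCF (-0.27 to 0.41), in ECCMM against GS (-0.06 to 0.54) and in ECCMM against CMM (-0.44 to 0.15), and that of Ace in CMM against GS (-0.70 to 0.02), where the groups overlap. Ace in CMM against GS has no value when only the libraries compared enter the fit, since the filter then leaves it out. Single calls were followed only for the other renin-angiotensin genes and the list genes picked by the naming rule. Calls of other list genes may also have ended. Among those followed, the call of Prep in ECCMM against GS ended under 7 of 20 alternatives. Others that ended were Arrb2 in GS against RCF (7), Prkca in CMM against GS (4) and Anpep in ECCMM against GS (1). That of Rgs2 in ECCMM against GS ended under 2, without GS replicate 3 or ECCMM replicate 2, each at log2 0.18. In ECCMM against CMM, those of Atp6ap2 (13), Ednrb (7) and Calcrl (8) ended. Same-numbered libraries of different groups did not deviate together (r of -0.06 to 0.09 over 18 pairs, and 6 of 12 libraries correlated best with their own number). With the replicate number as a block, 10166 genes were called in GS against RCF, 9135 in CMM against GS, 9538 in ECCMM against GS and 9054 in ECCMM against CMM, and the call of Atp6ap2 in ECCMM against CMM ended. Depth limits Agt, at 7 to 41 counts a library, Ace outside ECCMM, Agtr1b and Agtr2.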
